A study of Rattus norvegicus with 18 samples.

Results

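The genes described here are 9 components of the tight junction in rat lung, namely the claudins Cldn1, Cldn2, Cldn3, Cldn4, Cldn7, Cldn10, and Cldn18, occludin (Ocln), and the scaffold gene Tjp1. They were chosen by symbol, and each matched 1 row among the 22081 genes of the deposited tables. The 18 male F344/DuCrlCrlj rats formed 6 groups of 3. All of them received repeated intratracheal instillations of saline with Tween 80 under isoflurane, beginning at 9 weeks of age and given every 4 weeks. The 9 MWCNT-treated rats received in this vehicle 0.5 mg/kg of MWNT-7, a long and rigid multi-walled carbon nanotube, and the 9 control rats received the vehicle alone. Different animals were taken at each time point, those of Year 0.5 after 26 weeks at an age of 35 weeks, those of Year 1 after 52 weeks at 61 weeks of age, and those of Year 2 after 104 weeks at 113 weeks of age. Total RNA came from accessory lobe tissue with tumor nodules left out, and the rest of the lobe was checked under the microscope for absence of tumors. The paper names as a limitation that the tissue could still hold focal lesions such as hyperplasia. A single dose of a single nanotube was sequenced.

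Tight junctions seal the space between neighboring epithelial or endothelial cells. Claudins are membrane proteins with 4 transmembrane segments that pair across the gap, and each claudin makes the seal tighter or opens a pore for selected ions. Occludin is a further membrane strand protein, and zonula occludens proteins such as the Tjp1 product ZO-1 tie the strands to actin. In the lung, alveolar epithelium is known for claudins 3, 4, and 18, airway epithelium for several others including claudins 1 and 7, and endothelium for claudin 5.

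Cldn4 and Cldn10 rose to more than double their control level at every time point, while Tjp1 fell at every time point. Smaller rises were found for Cldn18, Ocln, and Cldn7, of which Cldn18 had the highest level of the 9 genes. Cldn1, with a fall, and Cldn3, with a rise, passed the test at Year 1 and not at the other time points, and Cldn2 was barely detected. At each time point 2 of the 8 tested genes, Cldn4 and Cldn10, met the criterion for a differentially expressed gene (DEG, false discovery rate, FDR, below 0.05 and absolute log2 fold change above 1 by the edgeR quasi-likelihood test) in the upward direction, and 0 did so downward. Upregulated DEGs made up 6.07%, 6.13%, and 8.17% of the 14315, 14345, and 14361 genes tested at Years 0.5, 1, and 2, and downregulated DEGs 3.03%, 4.09%, and 8.22%. By FDR alone, 5 of the 8 were higher and 1 lower at Year 0.5, against 20.2% and 18.6% of all genes. At Year 1 the counts were 6 higher and 2 lower, against 21.6% and 19.6%. At Year 2 they were 5 higher and 1 lower, against 25.2% and 24% of all genes. The median log2 fold change of the 8 genes was 0.37, 0.37, and 0.46 at the 3 time points, against -0.02, 0.00053, and -0.01 for all genes tested.

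Levels are given in TPM, transcript abundances scaled to gene length and library, and fold changes come from counts scaled by the trimmed mean of M-values (TMM). These scales differed between the groups, because a scaling by library size alone moved the median log2 fold change of all genes by -0.10, -0.13, and -0.17 at Years 0.5, 1, and 2 relative to TMM. The TPM of all MWCNT rats lay above those of all control rats in 17%, 15%, and 18.1% of the genes tested at the 3 time points, and below them in 40.7%, 46.8%, and 45.7%. Total counts ranged from 13297643 to 21130757 per rat. Marker genes of alveolar type 2 cells summed to 28478 to 37717 TPM in control rats and to 52493 to 62480 TPM in MWCNT rats, and 10, 8, and 9 of the 10 rose by FDR at Years 0.5, 1, and 2. Those of alveolar type 1 cells summed to 6178 to 7307 TPM and to 3154 to 4862 TPM, and 9, 8, and 9 of 10 fell. Endothelial markers summed to 2345 to 3153 TPM and to 783 to 1545 TPM, with 8, 7, and 7 of 8 lower, and macrophage markers to 308 to 401 TPM and to 981 to 1798 TPM, with 8 of 8 higher at each time point. The sum of ciliated cell markers in MWCNT rats was 0.394, 0.364, and 0.242 times that of control rats. Heart muscle markers summed to 72.9 to 671 TPM in control rats and to 15.6 to 203 TPM in MWCNT rats. In bulk tissue, fewer cells of a type and less RNA per cell cannot be told apart.

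**Figure D1:**
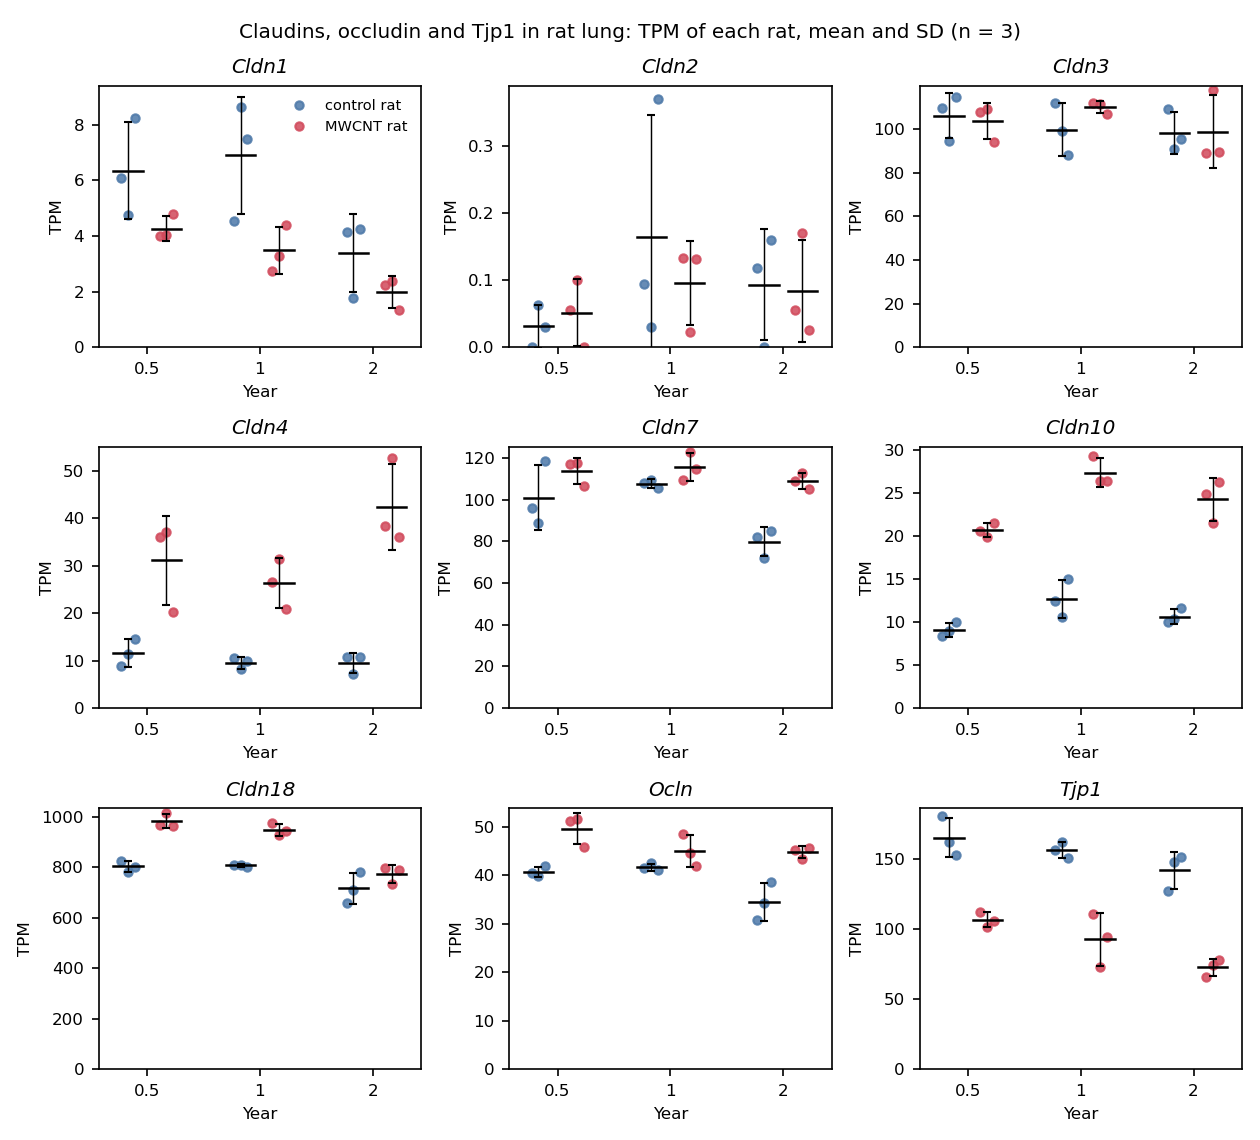
TPM (vertical axes) of the 9 genes in each rat at Years 0.5, 1, and 2 (horizontal axes). Blue points are control rats, red points MWCNT rats, and black lines the mean and SD of the 3 rats. For Cldn4 and Cldn10 every MWCNT rat lies above every control rat of its time point, and for Tjp1 every MWCNT rat lies below.

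Cldn4 (ENSRNOG00000001476, Rnor_6.0 chr12:24761210-24763005), a sealing claudin of alveolar type 2 and airway cells, showed the largest rise. At Year 0.5, Cldn4 measured 8.77, 11.3, and 14.6 TPM in the control rats and 36.0, 37.0, and 20.3 TPM in the MWCNT rats. At Year 1, Cldn4 measured 10.5, 8.14, and 9.997 TPM in control rats and 26.6, 31.4, and 20.8 TPM in MWCNT rats. At Year 2, Cldn4 measured 10.8, 7.10, and 10.7 TPM in control rats and 38.4, 52.7, and 36.1 TPM in MWCNT rats. The groups did not overlap at any time point, and the lowest MWCNT rat of all, at 20.3 TPM, stood above the highest control rat, at 14.6 TPM. The rise was 2.99-fold at Year 0.5 (log2 fold change 1.58, SE 0.25, edgeR FDR 0.00142) and 3.26-fold at Year 1 (1.70, SE 0.19, FDR 0.000196). It was 5.16-fold at Year 2 (2.37, SE 0.20, FDR 1.68e-05). Relative to Sftpc, a marker of alveolar type 2 cells, the log2 TPM ratio of Cldn4 was 0.59, 0.72, and 1.37 higher on average in MWCNT rats. For this ratio the groups overlapped at Year 0.5. Alveolar type 2 markers were higher in MWCNT rats, and their part in the Cldn4 result was not tested.

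Cldn10 (ENSRNOG00000010085, Rnor_6.0 chr15:104026601-104115748) encodes an ion pore-forming claudin, known in mouse lung as a marker of club cells, the secretory cells of small airways. At Year 0.5, Cldn10 measured 8.37, 8.97, and 9.99 TPM in control rats and 20.6, 19.9, and 21.5 TPM in MWCNT rats. At Year 1, Cldn10 measured 12.4, 10.6, and 15.02 TPM in control rats and 29.3, 26.4, and 26.4 TPM in MWCNT rats. At Year 2, Cldn10 measured 10.03, 10.3, and 11.6 TPM in control rats and 24.9, 21.5, and 26.3 TPM in MWCNT rats. The groups stood apart at each time point, and the spread within each group was small. The rises were of similar size at the 3 time points, 2.51-fold at Year 0.5 (log2 fold change 1.33, SE 0.11, edgeR FDR 4.01e-05), 2.53-fold at Year 1 (1.34, SE 0.13, FDR 0.000101), and 2.65-fold at Year 2 (1.41, SE 0.12, FDR 1.78e-05). The club cell secretoglobin Scgb1a1 moved the other way and fell by 0.87, 0.91, and 0.80 on the log2 scale (edgeR FDR 0.00227, 0.000559, and 0.00479). The log2 ratio of Cldn10 to Scgb1a1 TPM within a rat was 2.19, 2.27, and 2.17 higher on average in MWCNT rats at the 3 time points. The 6 club cell markers together summed to 18540 to 33416 TPM in control rats and to 10904 to 16012 TPM in MWCNT rats, with 3, 4, and 3 lower and 1 higher by FDR at each time point, and their part in the Cldn10 result was not tested.

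Cldn18 (ENSRNOG00000030386, Rnor_6.0 chr8:107934860-107952530), the main claudin of the alveolar epithelium, had the highest TPM of the 9 genes in all 18 rats. At Year 0.5, Cldn18 measured 825, 783, and 803 TPM in control rats and 969, 1017, and 965 TPM in MWCNT rats. At Year 1, Cldn18 measured 811, 811, and 802 TPM in control rats and 976, 928, and 945 TPM in MWCNT rats. At Year 2, Cldn18 measured 660.2, 709, and 784 TPM in control rats and 796, 733, and 791 TPM in MWCNT rats. The MWCNT rats were above all controls at Years 0.5 and 1, and the groups overlapped at Year 2. Rises were 1.35-fold at Year 0.5 (log2 fold change 0.44, SE 0.063, edgeR FDR 0.000789), 1.38-fold at Year 1 (0.47, SE 0.072, FDR 0.00109), and 1.25-fold at Year 2 (0.33, SE 0.082, FDR 0.00945). The Year 2 call was lost with a scaling by library size alone (log2 fold change 0.15, edgeR FDR 0.132). The log2 TPM ratio of Cldn18 to Lamp3, a lysosome-associated protein of lamellar bodies in alveolar type 2 cells, changed by -0.80, -0.66, and -1.01 on average from control to MWCNT rats at the 3 time points, with every MWCNT rat below every control rat. Relative to Sftpc, another alveolar type 2 marker, the change was smaller, at -0.53, -0.50, and -0.68, again without overlap. Alveolar type 2 markers were higher and alveolar type 1 markers lower in MWCNT rats, and their part in the Cldn18 result was not tested.

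Ocln (ENSRNOG00000018297, Rnor_6.0 chr2:30527715-30577218), the strand protein occludin, followed a course close to that of Cldn18 at Years 0.5 and 1. At Year 0.5, Ocln measured 40.4, 39.7, and 41.8 TPM in control rats and 51.2, 51.5, and 45.8 TPM in MWCNT rats. At Year 1, Ocln measured 41.4, 42.4, and 41.0 TPM in control rats and 48.4, 44.5, and 41.9 TPM in MWCNT rats. At Year 2, Ocln measured 30.6, 34.2, and 38.5 TPM in control rats and 45.2, 43.3, and 45.6 TPM in MWCNT rats. The groups overlapped at Year 1 only, through 1 MWCNT rat at 41.9 TPM. Ocln rose 1.35-fold at Year 0.5 (log2 fold change 0.43, SE 0.070, edgeR FDR 0.00151), 1.27-fold at Year 1 (0.35, SE 0.078, FDR 0.00718), and 1.51-fold at Year 2 (0.60, SE 0.077, FDR 0.000230). On the scale of log2(TPM + 1) the Year 1 difference was 0.11 (limma FDR 0.321).

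Cldn7 (ENSRNOG00000017325, Rnor_6.0 chr10:56576428-56578626) encodes a claudin found along the lateral membranes of airway and alveolar epithelium. At Year 0.5, Cldn7 measured 95.9, 88.9, and 118 TPM in control rats and 117, 118, and 106 TPM in MWCNT rats. At Year 1, Cldn7 measured 108, 109.7, and 105 TPM in control rats and 109, 123, and 115 TPM in MWCNT rats. At Year 2, Cldn7 measured 82.3, 71.9, and 85.03 TPM in control rats and 109, 113, and 105 TPM in MWCNT rats. The groups overlapped at Years 0.5 and 1 and stood apart at Year 2, when the 3 control rats were below all rats of the other groups. Cldn7 rose 1.59-fold at Year 2 (log2 fold change 0.67, SE 0.088, edgeR FDR 0.000250). The rises at Years 0.5 and 1 were 1.25-fold (log2 fold change 0.32, SE 0.10, edgeR FDR 0.0404) and 1.27-fold (0.34, SE 0.088, FDR 0.0131), and both calls were lost with a scaling by library size alone (FDR 0.131 and 0.0708). The Year 0.5 call was also lost without control rat 1, control rat 2, MWCNT rat 1, or MWCNT rat 2 (FDR 0.132, 0.123, 0.103, and 0.115), and the Year 1 call without control rat 3 (FDR 0.0573).

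Cldn3 (ENSRNOG00000046007, Rnor_6.0 chr12:21831342-21832813), a sealing claudin of alveolar type 2 cells, overlapped between the groups throughout. At Year 0.5, Cldn3 measured 109.8, 94.6, and 115 TPM in control rats and 108, 109, and 94.2 TPM in MWCNT rats. At Year 1, Cldn3 measured 112, 99.4, and 88.0 TPM in control rats and 112, 112, and 107 TPM in MWCNT rats. At Year 2, Cldn3 measured 109, 90.8, and 95.4 TPM in control rats and 89.0, 118, and 89.6 TPM in MWCNT rats. The order of the groups by mean changed between time points. A 1.30-fold rise passed the test at Year 1 (log2 fold change 0.38, SE 0.10, edgeR FDR 0.0182), and this call was lost with a scaling by library size alone (FDR 0.0776) and without control rat 2 or control rat 3 (FDR 0.0632 and 0.0734). At Years 0.5 and 2 the log2 fold changes were 0.11 (SE 0.092, edgeR FDR 0.376) and 0.22 (SE 0.13, FDR 0.182), and on the scale of log2(TPM + 1) they were -0.03 and -0.002.

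Cldn1 (ENSRNOG00000001926, Rnor_6.0 chr11:77815181-77830416), a sealing claudin of airway epithelium and skin, was scarce, with 37 to 219 counts per rat. At Year 0.5, Cldn1 measured 6.08, 4.76, and 8.23 TPM in control rats and 3.98, 4.03, and 4.77 TPM in MWCNT rats. At Year 1, Cldn1 measured 4.55, 8.66, and 7.49 TPM in control rats and 2.75, 3.29, and 4.39 TPM in MWCNT rats. At Year 2, Cldn1 measured 4.15, 1.77, and 4.26 TPM in control rats and 2.22, 2.39, and 1.34 TPM in MWCNT rats. The MWCNT rats were below all controls at Year 1 only. Cldn1 fell 1.68-fold at Year 1 (log2 fold change -0.75, SE 0.25, edgeR FDR 0.0364), and this call was lost without control rat 2, control rat 3, MWCNT rat 1, or MWCNT rat 2 (FDR 0.133, 0.108, 0.102, and 0.0828). At Years 0.5 and 2 the log2 fold changes were -0.43 (SE 0.20, edgeR FDR 0.122) and -0.56 (SE 0.37, FDR 0.236), and each passed the test without control rat 2 of its time point (-0.60, FDR 0.0371, and -0.88, FDR 0.0380). Cldn2 (ENSRNOG00000054495, Rnor_6.0 chrX:111122552-111137769), a cation pore of leaky epithelia such as the kidney proximal tubule, had 0 to 15 counts per rat and at most 0.371 TPM, with 3 rats at 0. Too few counts kept it out of the test at every time point, and a difference was not detectable at this depth.

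Tjp1 (ENSRNOG00000011077, Rnor_6.0 chr1:126146489-126227469), whose product ZO-1 is the cytoplasmic scaffold of both epithelial and endothelial junctions, fell throughout. At Year 0.5, Tjp1 measured 181, 162, and 153 TPM in control rats and 112, 102, and 106 TPM in MWCNT rats. At Year 1, Tjp1 measured 157, 162, and 151 TPM in control rats and 111, 72.8, and 94.6 TPM in MWCNT rats. At Year 2, Tjp1 measured 127, 148, and 152 TPM in control rats and 66.0, 74.2, and 77.8 TPM in MWCNT rats. No MWCNT rat reached the lowest control rat, at 127 TPM. The fall was 1.41-fold at Year 0.5 (log2 fold change -0.49, SE 0.077, edgeR FDR 0.00126), 1.44-fold at Year 1 (-0.53, SE 0.12, FDR 0.00676), and 1.68-fold at Year 2 (-0.75, SE 0.080, FDR 7.16e-05). Relative to Cdh5, the endothelial cadherin, the log2 TPM ratio of Tjp1 was 0.34, 0.14, and 0.33 higher on average in MWCNT rats. The groups overlapped at Years 1 and 2. Endothelial markers fell by unlike amounts, so such a ratio depends on the marker chosen. At Year 2 the means of control and MWCNT rats were 184 and 129 TPM for Tie1 and 182 and 52.5 TPM for Kdr. For Tjp1 they were 142 and 72.7 TPM. Relative to Ager, a marker of alveolar type 1 cells, the log2 TPM ratio of Tjp1 changed by -0.03, -0.34, and -0.12, with overlap at Years 0.5 and 2. Relative to Epcam, an adhesion molecule of epithelial cells, it changed by -0.83, -0.85, and -1.24, without overlap. The endothelial and alveolar type 1 markers fell as given above, and their part in the Tjp1 result was not tested.

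**Figure D2:**
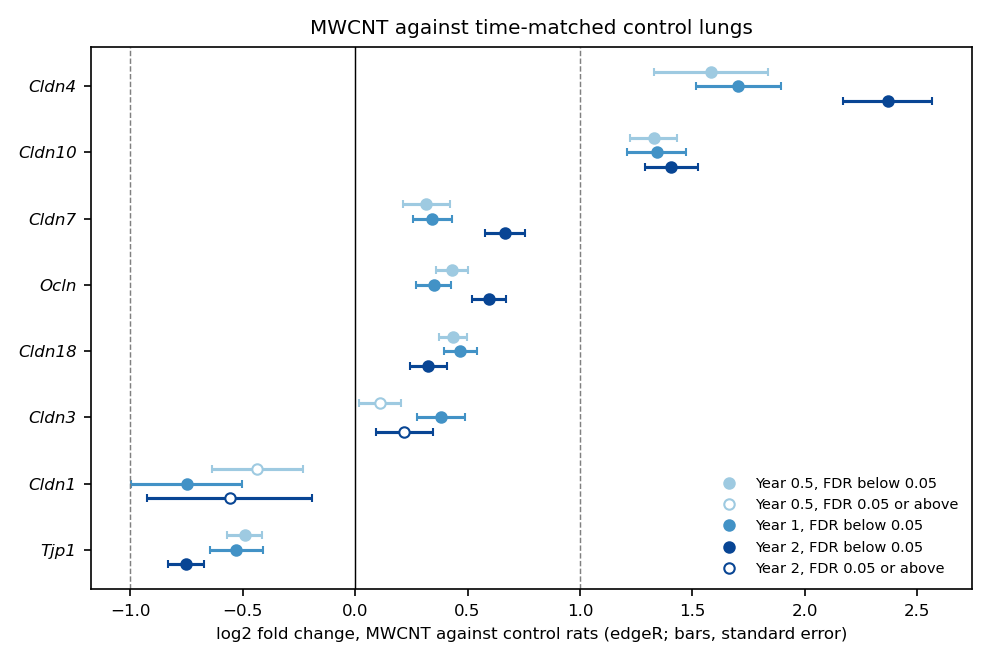
Log2 fold change of MWCNT against time-matched control rats (horizontal axis, edgeR) for the 8 tested genes (vertical axis), with standard errors as bars, a filled point for FDR below 0.05, and dashed lines at -1 and 1. Cldn4 and Cldn10 lie beyond the upper line at each time point, and Tjp1 lies between -0.49 and -0.75.

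The study compared 3 lengths of exposure, so the differences between the time points were tested directly. The interaction of treatment and time, which asks whether the MWCNT effect differed between 2 time points, passed the edgeR FDR threshold for 0 of the 8 genes in each of the 3 pairs of time points. Among all genes it did so for 0%, 1.31%, and 0.478% between Years 1 and 0.5, Years 2 and 0.5, and Years 2 and 1. At an unadjusted p below 0.05 the counts among the 8 genes were 0, 2, and 2, and by DESeq2 FDR they were 0, 0, and 0. The shares of all genes by these other rules are not reported here. The Cldn4 rise at Year 2 could not be told from that at Year 0.5 (interaction 0.79 on the log2 scale, SE 0.36, edgeR FDR 0.336). For Cldn7 the same interaction was 0.35 (SE 0.14, edgeR FDR 0.257).

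Within the MWCNT rats, 3 of the 8 genes were lower at Year 2 than at Year 0.5, against 6.87% of all genes that were lower. Tjp1 decreased by 0.47 (SE 0.10, edgeR FDR 0.00493) and Cldn18 by 0.26 (SE 0.063, FDR 0.0108) on the log2 scale. Cldn1 was the only DEG among them, against 0.903% of all genes (log2 fold change -1.01, SE 0.32, edgeR FDR 0.0476), and its call was lost in 10 of the 18 fits that left out 1 rat, most clearly without MWCNT rat 3 of Year 2 (log2 fold change -0.79, FDR 0.172). The Cldn18 call was lost without MWCNT rat 2 of Year 2 (FDR 0.0589). Cldn18 was also lower at Year 2 than at Year 1 in MWCNT rats (log2 fold change -0.28, SE 0.063, edgeR FDR 0.0159), against 3.26% of all genes, and this call was lost without MWCNT rat 1 of Year 1 (FDR 0.0548) or MWCNT rat 2 of Year 2 (FDR 0.0837).

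In the control rats, 2 of the 8 genes were lower at Year 2 than at Year 1, against 5% of all genes. Cldn7 decreased by 0.40 (SE 0.10, edgeR FDR 0.0240) and Ocln by 0.25 (SE 0.074, FDR 0.0494) on the log2 scale. The Ocln call was lost in 14 of the 18 fits that left out 1 rat (log2 fold change -0.20 and edgeR FDR 0.201 without control rat 1 of Year 2). The Cldn7 call was lost without control rat 2 or 3 of Year 1 (FDR 0.1001 and 0.0614) and without control rat 1 or 2 of Year 2 (FDR 0.0525 and 0.116). Between Years 2 and 0.5 of the control rats, 0 of the 8 genes passed the edgeR FDR threshold, against 6.65% of all genes. Of the 8, 5 had an unadjusted p below 0.05, and DESeq2 called 3. Between Years 1 and 0.5 the edgeR count was 0 in MWCNT and in control rats, against 0.101% and 0% of all genes. There was 1 unadjusted p below 0.05 in each treatment, and DESeq2 called 1 in MWCNT rats and 0 in control rats. The shares of all genes by unadjusted p and by DESeq2 are not reported here. Mean TPM in control rats was lowest at Year 2 for all members except Cldn2 and Cldn10, as the plot of TPM by rat shows. It was 79.8 for Cldn7, 34.4 for Ocln, 717 for Cldn18, and 142 for Tjp1. For Cldn1, Cldn3, and Cldn4 it was 3.39, 98.5, and 9.53. The control means of Cldn3 and Cldn4 at Year 1 were close to these, at 99.8 and 9.56 TPM. On the count scale their log2 fold changes between Years 2 and 1 were 0.010 and 0.022 (edgeR FDR 0.969 and 0.971). The share of all genes with the lowest control mean at Year 2 was not computed.

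Over the 6 groups, the order of mean TPM differed between the genes. The share of all genes whose ranges did not overlap between years was not computed. For Cldn4 the MWCNT groups of Years 2, 0.5, and 1 had means of 42.4, 31.1, and 26.3 TPM. The range of Year 0.5 overlapped those of the other years, while the rats of Year 2 (36.1 to 52.7 TPM) lay above those of Year 1 (20.8 to 31.4 TPM). This difference between Years 2 and 1 did not pass the test (log2 fold change 0.70, SE 0.24, edgeR FDR 0.0949). The control groups of Years 0.5, 1, and 2 (11.6, 9.56, and 9.53 TPM) overlapped. For Cldn10 the order was Year 1, Year 2, and Year 0.5 within both treatments. Means were 27.4, 24.3, and 20.7 TPM in MWCNT rats and 12.7, 10.6, and 9.11 TPM in control rats. Among these neighbors only the control groups of Years 1 and 2 had overlapping ranges, but some gaps were narrow. The highest MWCNT rat of Year 2 had 26.33 TPM and the lowest of Year 1 26.38 TPM. The lowest control rat of Year 2 had 10.03 TPM and the highest of Year 0.5 9.99 TPM. No difference of Cldn10 between years passed the edgeR FDR threshold (FDR 0.0687 to 0.476 in MWCNT rats, 0.235 to 0.500 in control rats). For Cldn18 the highest means were those of MWCNT rats at Years 0.5 and 1 (984 and 949 TPM), and the mean of MWCNT rats at Year 2 (773 TPM) ranked below those of the younger controls (808 and 804 TPM). For Tjp1 the order ran from control rats at Year 0.5 (165 TPM) down to MWCNT rats at Year 2 (72.7 TPM), with a gap between the ranges only between the last control group (142 TPM) and the first MWCNT group (107 TPM). All neighboring groups overlapped for Cldn1, Cldn2, and Cldn3.

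The sequence upstream of the transcription start was examined for the members that rose together, as far as a window was at hand (RefSeq, build GRCr8). Windows matched for 7 of the 9 genes, and Cldn2 and Cldn4 had no entry in the table used. The searched letters were CACCTG and its reverse complement CAGGTG, an E-box that the repressors Snai1 and Zeb1 are known to bind in epithelial genes, AACNGGTT for Grainyhead-like factors, and AGGAAG for ETS factors such as Elf3 and Ehf. The 250 bases before the start are shown for 4 genes that rose, with E-box letters in capitals, from chr10:55188420-55188669, plus strand, for Cldn7, chr2:33441199-33441448, minus strand, for Ocln, chr8:109144620-109144869, minus strand, for Cldn18, and chr15:102269608-102269857, plus strand, for Cldn10.
Cldn7: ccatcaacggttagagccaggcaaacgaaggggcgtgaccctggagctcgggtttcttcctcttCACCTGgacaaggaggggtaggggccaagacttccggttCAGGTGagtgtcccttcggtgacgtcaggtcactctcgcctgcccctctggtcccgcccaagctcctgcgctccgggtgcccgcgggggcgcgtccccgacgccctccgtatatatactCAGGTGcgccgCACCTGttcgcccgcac
Ocln: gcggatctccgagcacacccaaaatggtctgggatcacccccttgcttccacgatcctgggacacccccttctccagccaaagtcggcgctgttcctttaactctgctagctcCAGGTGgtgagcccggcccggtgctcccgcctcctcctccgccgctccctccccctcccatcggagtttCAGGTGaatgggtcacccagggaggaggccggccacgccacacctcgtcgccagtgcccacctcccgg
Cldn18: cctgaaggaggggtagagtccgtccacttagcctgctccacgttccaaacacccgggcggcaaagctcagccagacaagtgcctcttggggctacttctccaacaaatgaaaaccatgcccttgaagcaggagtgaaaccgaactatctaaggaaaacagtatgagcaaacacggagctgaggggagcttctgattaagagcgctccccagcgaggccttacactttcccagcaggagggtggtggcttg
Cldn10: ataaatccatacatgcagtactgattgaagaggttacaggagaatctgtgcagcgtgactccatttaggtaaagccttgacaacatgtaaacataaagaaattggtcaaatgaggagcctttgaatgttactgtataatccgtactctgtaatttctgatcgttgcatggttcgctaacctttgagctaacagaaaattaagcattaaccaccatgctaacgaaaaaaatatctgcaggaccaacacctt
Cldn7 held 4 E-boxes, whose first bases lay 186, 147, 28, and 17 bases before the start. Ocln held 2, at 137 and 68 bases, Cldn3 held 1, and the windows of Cldn1, Cldn10, Cldn18, and Tjp1 held 0. Of 33469 rat promoter windows of this length, 15.9% held at least 1 E-box, 1.84% at least 2, and 0.236% at least 3. The Grainyhead-like letters occurred in Tjp1 (1.76% of all windows) and the ETS letters in Cldn7 (29.5% of all windows). A match of letters is a description and was not tested for binding.

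Among the epithelial transcription factors, the ETS factors Elf3 and Ehf were upregulated DEGs at the 3 time points. Elf3 rose 2.77-fold, 2.89-fold, and 3.27-fold (log2 fold change 1.47, 1.53, and 1.71, SE 0.15, 0.13, and 0.12), with edgeR FDR 0.000163, 4.80e-05, and 7.84e-06. Ehf rose 2.09-fold, 2.06-fold, and 2.33-fold, with edgeR FDR 5.71e-05, 7.70e-05, and 4.58e-05. Nkx2-1, the master factor of lung epithelium, rose 1.40-fold, 1.47-fold, and 1.38-fold. Of the repressors, Zeb1 fell by 0.64, 0.76, and 1.10 on the log2 scale (edgeR FDR 0.000668, 0.000489, and 9.72e-06) and Snai1 by 0.98, 0.50, and 0.59 (FDR 0.0111, 0.0371, and 0.00327). Zeb2 passed the test at Year 2, in the opposite direction (log2 fold change 0.60, SE 0.11, edgeR FDR 0.00183). Single values of Snai2 and Twist1, which were on the same list, are not reported here. Endothelial markers were lower in the same rats, and their part in the falls of Zeb1 and Snai1 was not tested. A link of these factors to the E-boxes above was not tested either. Grhl2, a Grainyhead-like activator of claudin genes, did not pass the test at any time point (log2 fold change -0.0020, -0.21, and -0.10, edgeR FDR 0.991, 0.116, and 0.422). Of the 14 factors, 3 were higher and 2 lower at Year 0.5, 3 and 3 at Year 1, and 6 and 3 at Year 2 by FDR. Among all genes 20.2%, 21.6%, and 25.2% were higher and 18.6%, 19.6%, and 24% lower. The counts of the factors were near these shares, except for the 6 that were higher at Year 2. Upregulated DEGs were 2 of the 14 at each time point, against 6.07%, 6.13%, and 8.17% of all genes. Their median log2 fold changes were 0.04, -0.18, and -0.15, against -0.02, 0.00053, and -0.01 for all genes.

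The deposited tables held 28 claudin genes, of which 14 passed the filter on low counts in at least 1 comparison and 6 had no count in any rat. Among the 16 other claudins of the prepared list, 8 were tested. Cldn5, the endothelial claudin, fell by 0.84, 0.84, and 1.41 on the log2 scale (edgeR FDR 0.00154, 0.000485, and 5.36e-05) and was a DEG at Year 2. It measured 1144 to 1322 TPM in control rats and 471 to 718 TPM in MWCNT rats at Year 0.5, and 1017 to 1286 TPM against 313 to 461 TPM at Year 2. Its position overlaps that of Cdc45 in the tables. Cldn6, a claudin of embryonic epithelium, was an upregulated DEG at the 3 time points, from a low level (1.12 to 2.42 TPM in control rats and 3.51 to 7.82 TPM in MWCNT rats). Its log2 fold changes were 2.05, 1.73, and 2.51 (SE 0.29, 0.33, and 0.32, edgeR FDR 0.000696, 0.00351, and 0.000201). Cldn6 lies 148 bases from Cldn9, and whether the counting used strand is not given in the sources used here. Cldn8 was a downregulated DEG at Year 0.5 (log2 fold change -1.39, edgeR FDR 0.00370), and Cldn11 an upregulated DEG at Year 1 (1.04, FDR 0.00224). By FDR alone Cldn8 was also lower at Year 1, and Cldn11 was also higher at Years 0.5 and 2. Their interactions between Years 1 and 0.5 were 0.62 and 0.44 (edgeR FDR 0.703 and 0.651). Between Years 2 and 0.5 they were 0.65 and 0.41 (FDR 0.578 and 0.531). The remaining other claudins tested, Cldn9, Cldn12, Cldn15, and Cldn23, did not pass the test at any time point.

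Most of the other genes of the cytoplasmic plaque were lower in MWCNT rats. Of 22 other scaffold and polarity genes, 14, 15, and 17 fell by FDR at Years 0.5, 1, and 2, against 18.6%, 19.6%, and 24% of all genes. Of the same 22, 0, 1, and 0 rose, against 20.2%, 21.6%, and 25.2% of all genes, and 8, 6, and 5 did not pass the test. Their median log2 fold changes were -0.35, -0.44, and -0.59, against -0.02, 0.00053, and -0.01 for all genes tested. The endothelial and alveolar type 1 markers were lower in the same rats, with summed TPM of 0.485, 0.515, and 0.360 times and of 0.661, 0.668, and 0.502 times the control level, and their part in these counts was not tested. Magi2, a membrane-associated guanylate kinase scaffold, was a downregulated DEG at the 3 time points (log2 fold change -1.24, -1.37, and -1.73, edgeR FDR 0.0168, 0.00139, and 0.00497), from at most 2.30 TPM. Mpdz, a multi-PDZ scaffold of claudins, and Amotl2, an angiomotin family protein, were DEGs at Year 2 (log2 fold change -1.10 and -1.14, edgeR FDR 9.13e-06 and 8.39e-05). The interaction between Years 2 and 0.5 was -0.46 for Mpdz and -0.43 for Amotl2 (edgeR FDR 0.252 and 0.334). Tjp3, the gene of ZO-3, which is restricted to epithelium, did not pass the test (log2 fold change 0.29, 0.24, and 0.22, edgeR FDR 0.121, 0.145, and 0.101). Crb3, an apical polarity protein, was the gene that rose at Year 1 (log2 fold change 0.38, edgeR FDR 0.0276). At Years 0.5 and 2 its log2 fold changes were 0.25 and 0.06 (edgeR FDR 0.0780 and 0.646), and the difference between time points was not tested for it.

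The other transmembrane components included genes that rose and genes that fell. Of 11 such genes tested at Years 0.5 and 1, 4 and 3 rose and 3 and 2 fell by FDR, and of 10 tested at Year 2, 3 rose and 3 fell. Among all genes 20.2%, 21.6%, and 25.2% were higher and 18.6%, 19.6%, and 24% lower at the 3 time points. Apart from the 4 that rose at Year 0.5, the counts of the list were near these shares. The median log2 fold changes of the list were 0.12, 0.05, and 0.09. Those that rose included Lsr and Ildr1, which recruit tricellulin to the corners where 3 cells meet. Lsr rose by 0.36, 0.48, and 0.70 on the log2 scale (edgeR FDR 0.0367, 0.00119, and 0.000394), and Ildr1 by 0.39, 0.84, and 0.80 (FDR 0.0332, 0.000534, and 0.000288). Those that fell included Jam2 and Esam, junctional adhesion molecules of endothelium. Esam fell by 0.44, 0.42, and 0.73 on the log2 scale (edgeR FDR 0.00281, 0.00200, and 0.000197). Jam2 fell by 0.87, 0.84, and 1.35 (edgeR FDR 0.000221, 0.000116, and 5.35e-06), and was a DEG at Year 2, when it measured 153 to 177 TPM in control rats and 48.4 to 63.5 TPM in MWCNT rats. F11r and Cxadr were lower in TPM in every MWCNT rat than in every control rat of the same time point. This held for 40.7%, 46.8%, and 45.7% of all genes tested. Neither F11r nor Cxadr passed the edgeR FDR threshold at Years 0.5 and 1, and their edgeR results at Year 2 are not reported here. At Year 2, F11r measured 249 to 256 TPM in control rats and 165 to 183 TPM in MWCNT rats. Cxadr measured 24.8 to 27.1 TPM and 17.1 to 21.9 TPM. Ildr2, with 5 to 21 counts per rat, was a downregulated DEG at Year 0.5 (log2 fold change -1.37, edgeR FDR 0.0315) and was not tested at Year 2. Its interaction between Years 1 and 0.5 was 1.93 (edgeR FDR 0.545). Among 7 epithelial adhesion genes and membrane proteases, 5, 4, and 6 rose and 0, 0, and 1 fell by FDR at Years 0.5, 1, and 2, against 20.2%, 21.6%, and 25.2% of all genes that were higher and 18.6%, 19.6%, and 24% that were lower. The median log2 fold changes of these 7 genes were 0.33, 0.30, and 0.31. St14, the gene of the protease matriptase, rose 1.70-fold, 1.83-fold, and 2.09-fold (edgeR FDR 0.000292, 4.72e-05, and 2.03e-05) and was a DEG at Year 2.

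**Figure D3:**
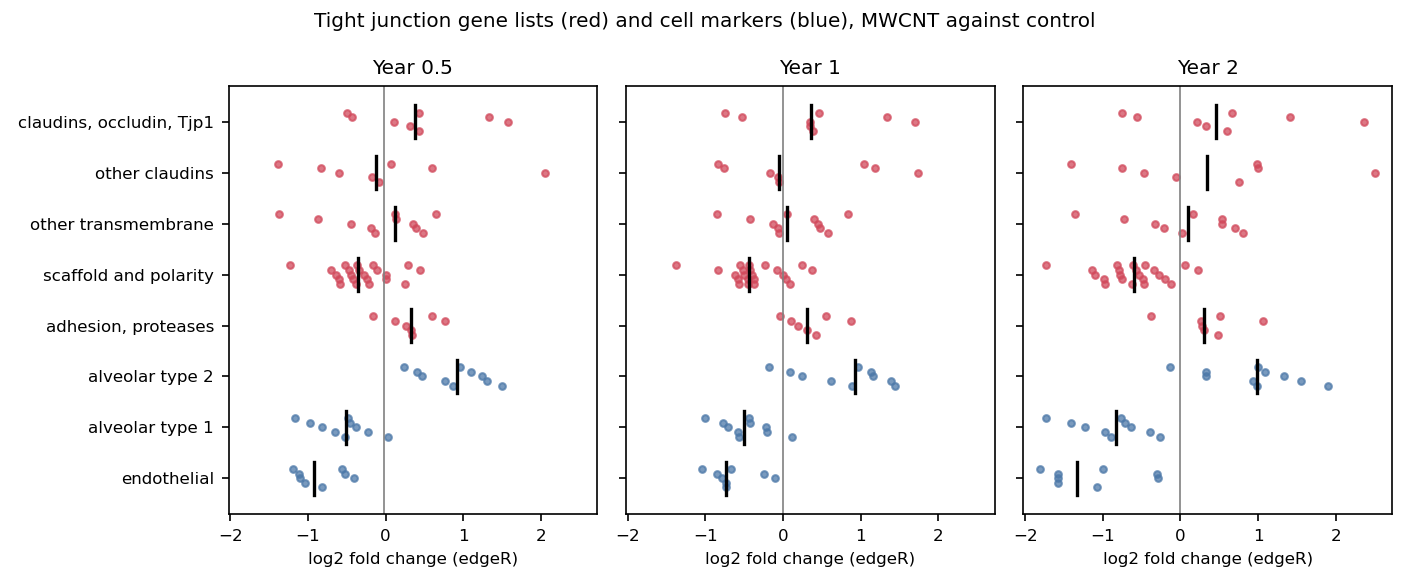
Log2 fold change of MWCNT against control (horizontal axes, edgeR) at Years 0.5, 1, and 2 for each tested gene (1 point per gene) of the tight junction lists (red) and of 3 cell marker lists (blue), in rows. Black bars are list medians and the grey line is the median of all genes tested. Scaffold and polarity genes have medians of -0.35, -0.44, and -0.59, and alveolar type 2 markers 0.91, 0.93, and 0.99.

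Ratios within a rat do not depend on the scaling between rats, and they are given as a description. In control rats, Cldn5 made up on average 52.8%, 51.1%, and 54.4% of the summed claudin TPM at Years 0.5, 1, and 2, and Cldn18 34.6%, 35.8%, and 33.2%. In MWCNT rats the share of Cldn5 was 32.03%, 29.7%, and 25.3%, and that of Cldn18 50.8%, 51.5%, and 51.2%. Cldn5 thus had the larger mean share in each control group and Cldn18 in each MWCNT group. With Cldn5 left out, Cldn18 held 73.2%, 73.2%, and 72.7% of the remaining claudin TPM in control rats and 74.8%, 73.2%, and 68.6% in MWCNT rats, and the groups overlapped. The share of Cldn4 in this remainder was 1.05%, 0.865%, and 0.966% in control rats and 2.35%, 2.03%, and 3.76% in MWCNT rats. That of Cldn10 was 0.830%, 1.15%, and 1.08% in control rats and 1.57%, 2.11%, and 2.15% in MWCNT rats. For both, all MWCNT rats lay above all control rats of their time point.

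**Figure D4:**
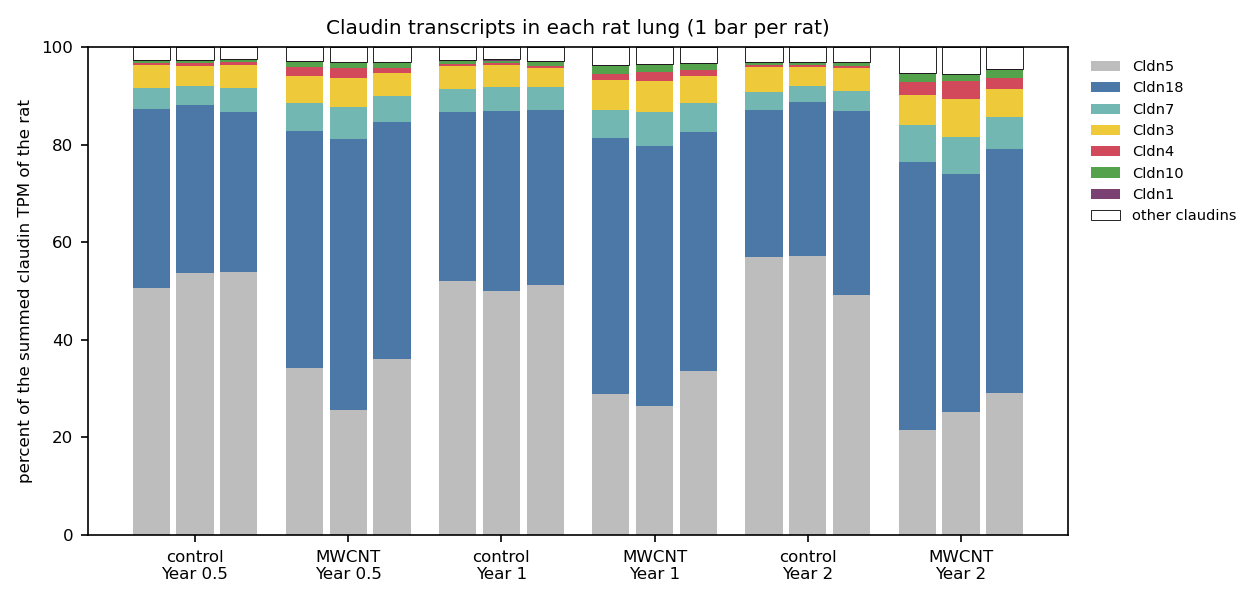
Share of each claudin in the summed claudin TPM of a rat (vertical axis, percent), with 1 bar per rat in the 6 groups (horizontal axis). Cldn5 (grey) falls from means of 51.1% to 54.4% in control groups to 25.3% to 32.03% in MWCNT groups, and Cldn4 (red) widens from 0.422% to 0.494% to between 1.44% and 2.81%.

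Cldn18 and Cldn4, the members with the highest level and the largest rise, were also set against each other. Cldn18 TPM per Cldn4 TPM was 72.8 ± 19.8 (SD, n = 3) in control and 34.0 ± 11.7 in MWCNT rats at Year 0.5. It was 85.6 ± 12.2 and 37.2 ± 7.89 at Year 1, and 78.1 ± 19.8 and 18.9 ± 4.33 at Year 2. The control rats lay between 55.0 and 99.7 and the MWCNT rats between 13.9 and 47.6, with no overlap. Ocln TPM per Tjp1 TPM, a ratio of strand to scaffold transcripts, was 0.247 ± 0.025, 0.266 ± 0.0049, and 0.242 ± 0.011 in control rats at the 3 time points, and 0.466 ± 0.037, 0.497 ± 0.099, and 0.619 ± 0.058 in MWCNT rats. These ranges did not overlap either.

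Relative to Epcam, which itself rose by 0.34, 0.30, and 0.48 on the log2 scale (edgeR FDR 0.00463, 0.00826, and 0.00526), the members differed. The log2 TPM ratio of Cldn4 to Epcam was 1.21, 1.38, and 1.89 higher in MWCNT rats, and that of Cldn10 was 0.99, 1.05, and 0.92 higher, without overlap between groups. For Cldn18 the difference was 0.09, 0.16, and -0.16, for Ocln 0.08, 0.04, and 0.11, and for Cldn7 -0.02, 0.03, and 0.18. The groups overlapped for these 3 genes except for Cldn18 at Year 1, Ocln at Year 0.5, and Cldn7 at Year 2. For Cldn3 the difference was -0.23, 0.08, and -0.27, with overlap at Years 1 and 2. For Cldn1 it was -0.75, -1.03, and -0.98, with the MWCNT rats below all controls at each time point. Relative to Cdh1, the epithelial cadherin, several of these readings changed. The log2 TPM ratio of Ocln to Cdh1 was 0.17, 0.24, and 0.33 higher in MWCNT rats, above all controls at each time point. That of Cldn18 was 0.18, 0.36, and 0.05 higher, with overlap at Year 2, and that of Cldn7 was 0.07, 0.23, and 0.40 higher, with overlap at Year 0.5. For Cldn1 the difference relative to Cdh1 was -0.66, -0.83, and -0.77, with overlap at Years 1 and 2. Cldn4 (1.29, 1.58, and 2.10 higher) and Cldn10 (1.07, 1.25, and 1.13 higher) stayed above all controls, Tjp1 (-0.74, -0.64, and -1.02) below them, and Cldn3 (-0.15, 0.28, and -0.06) overlapped. The share of all genes without overlap was not computed for these ratios. For TPM itself, 17%, 15%, and 18.1% of all genes lay above all controls and 40.7%, 46.8%, and 45.7% below them.

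The genes whose log2 CPM, counts scaled by library with TMM, were most like those of each member over the 18 rats were read from 14842 genes, as a description in which the treatment difference and the library are shared. Cldn7 was closest to Lsr, the tricellular junction gene named above (Pearson r = 0.98, and 0.94 for deviations from the group means), followed by the chaperonin subunits Cct6a and Tcp1 (0.96 and 0.95). Cldn18 was closest to Cybrd1, Tgoln2, and Lamp3 (r = 0.98, 0.97, and 0.96, with 0.85, 0.85, and 0.85 for deviations). Tjp1 was closest to Bmpr2, a receptor of bone morphogenetic proteins, Shroom4, and Arap2 (r = 0.99, 0.98, and 0.98, with 0.89, 0.88, and 0.91 for deviations). Cldn4 was closest to Hvcn1, a proton channel of phagocytes, Serinc2, and Sirpa (r = 0.98, 0.97, and 0.97), with 0.86, 0.70, and 0.68 for deviations. Cldn10 was closest to Chi3l1, a chitinase-like protein, Acsbg1, and Sod2, the mitochondrial superoxide dismutase (r = 0.99, 0.98, and 0.98), with 0.77, 0.46, and 0.77 for deviations. Ocln was closest to Cd164, Cd47, and Enpp3 (r = 0.98, 0.97, and 0.97), Cldn3 to Rab3d, Ap1s3, and Apmap (0.87, 0.86, and 0.85), and Cldn1 to Gpc3, Cyp1b1, and Fbxo40 (0.90, 0.88, and 0.88).

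Among the members themselves, the deviations of single rats from their group means gave the highest correlations for Ocln with Cldn18 (r = 0.79 over 18 rats) and for Cldn4 with Cldn7 (r = 0.74), followed by Cldn3 with Cldn4 (r = 0.65) and Cldn3 with Cldn7 (r = 0.63). For Cldn4 with Cldn10, the pair that rose most, the value was 0.20, although their levels over the 18 rats had r = 0.88. Tjp1 and Cldn18 gave -0.01 for deviations. These values share library and depth and carry no test.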

How the data were processed

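RNA-seq of lung tissue was analysed in 18 rats, grouped by treatment and year from the sample labels. The authors mapped the reads with CLC Genomics Workbench 22.0.2, and the submitters' processing notes name Rnor_6.0 and rn6. The deposited whole-number counts per gene are not normalized. TPM, as deposited by the authors, was calculated in that software and adds up to 1e+06 per rat. The handling of reads that match several genes and of strand is not given in the sources used here. The 36 columns of RPKM and of adjusted CPM, and the authors' own comparison columns, which hold fold changes and p-values, were not used.

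Counts were filtered with filterByExpr (minimum count 10, minimum total count 15), scaled by TMM, and tested with the quasi-likelihood F test of edgeR 4.0.16 in R 4.3.3, with Benjamini-Hochberg adjustment over all genes tested (FDR). The 6 rats of a time point entered each MWCNT-control comparison, and 1 model with a mean for each of the 6 groups over 18 rats gave the interactions and time effects. The interactions share control rats with the comparisons at each time point. Standard errors were taken as the absolute log2 fold change over the square root of F. Log2 CPM for correlations used a prior count of 2. Alternatives were no filter, at least 10 counts in every rat, library size only, RLE size factors, DESeq2 1.42.0, limma 3.58.1 on log2(TPM + 1) and log2(TPM + 0.1), 1 model of all 18 rats, a replicate block, and leaving out each rat. The scripts were tested on simulated data. With 3 rats per group, precision is set by the spread between rats. Upstream sequences were read from a RefSeq table of build GRCr8, whose coordinates were not mixed with those of the counts.

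The members, gene lists, and tests were chosen with earlier results of these data known. Genes named were all 9 members, list genes that were DEGs at 1 or more time points, the 3 genes most like each member by Pearson r, and marker genes used for ratios. A few further list genes were named after their values were seen. They were Tjp3, Crb3, Lsr, Ildr1, Esam, F11r, Cxadr, Nkx2-1, Snai1, Zeb2, Grhl2, Epcam, Tie1, Kdr, and the 4 other claudins without a call. Single values of some list genes are not reported here.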

Additional observations from a re-analysis of the deposited data

How the results depend on the processing

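Cldn4, Cldn10, and Tjp1 kept their direction and their call against control at the 3 time points under the alternatives run, with log2 fold changes of 1.33 to 2.50, 1.06 to 1.49, and -0.97 to -0.42. Of 216 refits of single members against control with all rats, 196 kept direction and call, 16 lost the call, and 4 reversed. Of 144 fits without 1 rat, 131 kept both, 11 lost the call, and 2 gained it. By FDR with no fold change limit, 5, 6, and 5 members were higher and 1, 2, and 1 lower at Years 0.5, 1, and 2. Reversals were small values. Cldn3 against control was -0.033 and -0.034 at Year 0.5 and -0.0022 and -0.0023 at Year 2 with limma on log2(TPM + 1) and log2(TPM + 0.1). Between Years 2 and 0.5 of MWCNT rats, Cldn3 was -0.0050 with no filter and -0.013 with library size only, against 0.013, and -0.12 to 0.086 without 1 rat. Cldn7 was -0.0059 with library size only, against 0.022, and -0.049 to 0.059 without 1 rat. The interaction between Years 2 and 0.5 ranged from -0.44 to 0.10 for Cldn1 and from -0.024 to 0.23 for Cldn3 without 1 rat. The cause was not tested.

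With library size only, upregulated DEGs at Year 1 among other tight junction genes were 1, and the transcription factors had 1 upregulated and 1 downregulated DEG at Year 0.5, 1 upregulated at Year 1, and 2 downregulated at Year 2, against 2, 2, 0, 2, and 1 in the same order with TMM. On both TPM scales the calls of Cldn7 at Years 0.5 and 1, Cldn3 and Ocln at Year 1, and Cldn18 at Year 2 were lost (limma FDR 0.256 to 0.355). In the model of 18 rats Cldn1 at Year 1 had FDR 0.0533. Replicate numbers did not pair the rats, since deviations of rats with the same number had a mean correlation of 0.0068 (lowest -0.15, highest 0.11). With the replicate block the count of DEGs between Years 2 and 0.5 of MWCNT rats was 0 in place of 1 (Cldn1, FDR 0.0594), Cldn7 at Year 0.5 had FDR 0.0609, Ocln between Years 2 and 1 of control rats had FDR 0.0656, and no other call of a member changed. Without 1 rat the first count ranged from 0 to 1, and the count between Years 2 and 1 of control rats from 0 to 1. Of Cldn1 and Cldn2, the low counts limit what could be detected.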
